A study of Picea abies with 36 samples.

Results

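3 transcription factor genes of Norway spruce (Picea abies) were followed across hormone treatments of the hypocotyl, the stem below the cotyledons. They were PaVND4-like (MA_6777g0010), which the study relates to xylem, PaAPL-like (MA_201937g0010), which it relates to phloem, and PaMYB4-like (MA_316475g0010), which it places among the hub genes of its graft network without naming a vascular role. The rule that selects them gives names and IDs and no measured value, although they were proposed with earlier results of these data known. They were 3 of the 70736 genes in the count table. All 3 passed the filter on low counts that left 38732 genes for testing.

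Xylem carries water in dead, lignified cells, whereas phloem carries sugars in living conducting cells, and both arise from dividing procambium or cambium. VND proteins are NAC transcription factors that in Arabidopsis switch on secondary wall deposition and cell death in xylem vessel cells. APL is a MYB coiled-coil transcription factor that Arabidopsis needs for phloem identity, and MYB4 is a MYB repressor of phenylpropanoid genes, the pathway that supplies lignin precursors. Auxin and cytokinin are the plant hormones best known for controlling cambial activity and vascular patterning. In spruce these roles are inferred from sequence similarity, hence the ending "-like". The spruce annotation used by the study describes PaMYB4-like as a MYB-related protein and PaAPL-like as an APL isoform of the MYB family. For PaVND4-like it gives no description, and the name comes from the closest Arabidopsis gene.

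RNA was measured in wild-type seedlings (FP-518 TreO G7 Söregärde), aged 2 weeks at treatment, whose middle hypocotyl was covered with lanolin paste. The paste held 50 mM indole-3-acetic acid (IAA, the natural auxin), 135 mM 6-benzylaminopurine (BAP, a synthetic cytokinin), both hormones (BAP+IAA) or no hormone (mock), and tissue was taken after 5, 10 or 15 days. The BAP dose is given in mM in the methods but in µM in a figure legend of the study, so the dose applied is uncertain. Each of the 12 groups had 3 libraries, each made from several pooled plants, so the spread between libraries is a spread between pools. Total counts ranged from 13188942 to 23110495 per library, 40720 to 43696 genes were detected, and no 2 libraries of a group agreed within sampling noise. Levels below are counts scaled to the library size, given as CPM. Gene lengths were not used here, so levels can be compared between groups for a gene and not between genes. A gene was called when the Benjamini-Hochberg adjusted P of edgeR's quasi-likelihood test was below 0.05 and the absolute log2 fold change was above 1.

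As a check of the tissue, genes that the study relates to xylem (PaVND4-like), phloem (PaAPL-like) and dividing cells (PaCDKB2;2-like) were detected in every library. PaVND4-like had 84 to 1384 counts per library and PaAPL-like 21 to 82. PaPRX66-like, a peroxidase that the study also relates to xylem, was near the floor in mock, with 2 to 4 counts per library at day 15. PaMYB4-like, for which the study names no vascular role, had 6 to 369 counts. PaCDKB2;2-like, a cyclin-dependent kinase of dividing cells, averaged 102, 87.8 and 64.0 CPM on days 5, 10 and 15 under IAA, 112, 99.8 and 78.0 CPM under BAP, 109, 99.5 and 71.4 CPM under BAP+IAA, and 66.1, 59.1 and 56.0 CPM in mock. It was not called against mock on any of the 3 days under any of the 3 treatments, since no log2 fold change reached 1, although the adjusted P was below 0.05 in 8 of the 9 comparisons. In whole tissue, fewer cells of a type and less RNA per cell cannot be told apart, and the part of a changed cell composition in the results below was not tested.

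**Figure D1:**
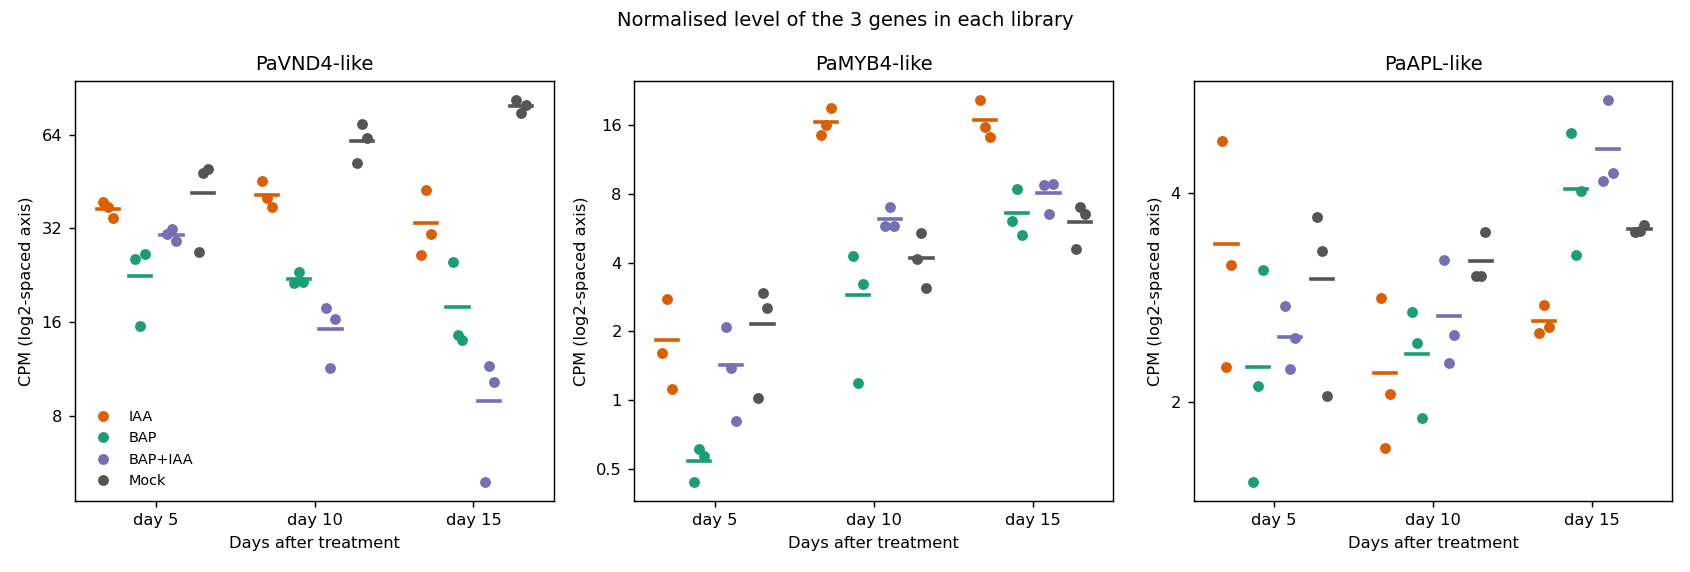
Level of PaVND4-like, PaMYB4-like and PaAPL-like in each of the 36 libraries, in CPM on a log2-spaced axis that differs between panels, by day after treatment. Each point is 1 library, coloured by treatment, and the line is the mean of 3. PaVND4-like was highest in mock at day 15 (79.0 CPM) and lowest under BAP+IAA at day 15 (8.93 CPM), PaMYB4-like was highest under IAA at days 10 and 15, and the PaAPL-like group means lay between 2.20 and 4.63 CPM.

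PaVND4-like, the xylem gene, was called lower than in mock under BAP and under BAP+IAA at days 10 and 15 and under IAA at day 15, and under no treatment at day 5. At day 5 the IAA libraries had 39.0, 37.6 and 34.5 CPM, the BAP libraries 25.5, 15.6 and 26.4 CPM, the BAP+IAA libraries 30.6, 31.8 and 29.1 CPM, and the mock libraries 26.8, 48.2 and 49.5 CPM. At this day the IAA and BAP+IAA ranges overlapped the mock range, while the 3 BAP libraries lay just below the lowest mock library, which was low beside the other two. At day 10 the values were 45.4, 40.2 and 37.6 CPM under IAA, 21.4, 23.2 and 21.5 CPM under BAP, 17.8, 11.4 and 16.4 CPM under BAP+IAA, and 51.7, 69.4 and 62.5 CPM in mock. At day 15 they were 26.4, 42.5 and 30.8 CPM under IAA, 25.0, 14.6 and 14.0 CPM under BAP, 4.93, 11.5 and 10.3 CPM under BAP+IAA, and 82.5, 75.0 and 79.4 CPM in mock. At days 10 and 15 every library of each hormone treatment was below every mock library.

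Against mock, PaVND4-like was called lower in 5 of 9 comparisons. Under IAA it was called lower only at day 15, with a log2 fold change ± SE of -1.25 ± 0.25 (adjusted P = 0.000353). In that comparison 5.99% of all genes tested were called lower. At day 10 the IAA value was -0.58 ± 0.25 (adjusted P = 0.0696), and at day 5 it was -0.16 ± 0.25 (adjusted P = 0.626). Under BAP it was called lower at day 10 (-1.47 ± 0.26, adjusted P = 7.15e-05) and at day 15 (-2.14 ± 0.26, adjusted P = 3.82e-07), beside 7.89% and 8.19% of all genes. The BAP value at day 5, -0.89 ± 0.26, had an adjusted P of 0.0114 but did not reach the fold threshold. With mock day 5 replicate 1, the low mock library, left out it was called (-1.12), as it was with BAP day 5 replicate 3 left out (-1.02). Under BAP+IAA it was called lower at day 10 (-2.01 ± 0.26, adjusted P = 4.92e-07) and at day 15 (-3.15 ± 0.28, adjusted P = 5.6e-10), beside 11.5% and 11.2% of all genes. The day 15 value corresponds to a level 0.113 times that of mock. Averaged over the 3 days, the log2 fold change was -0.66 ± 0.15 under IAA, which was below the fold threshold (adjusted P = 0.000288), -1.50 ± 0.15 under BAP (adjusted P = 2.48e-09) and -1.87 ± 0.15 under BAP+IAA (adjusted P = 2.02e-11). Of all genes tested, 20.8%, 15.3% and 24.2% were called in either direction in these averages.

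**Figure D2:**
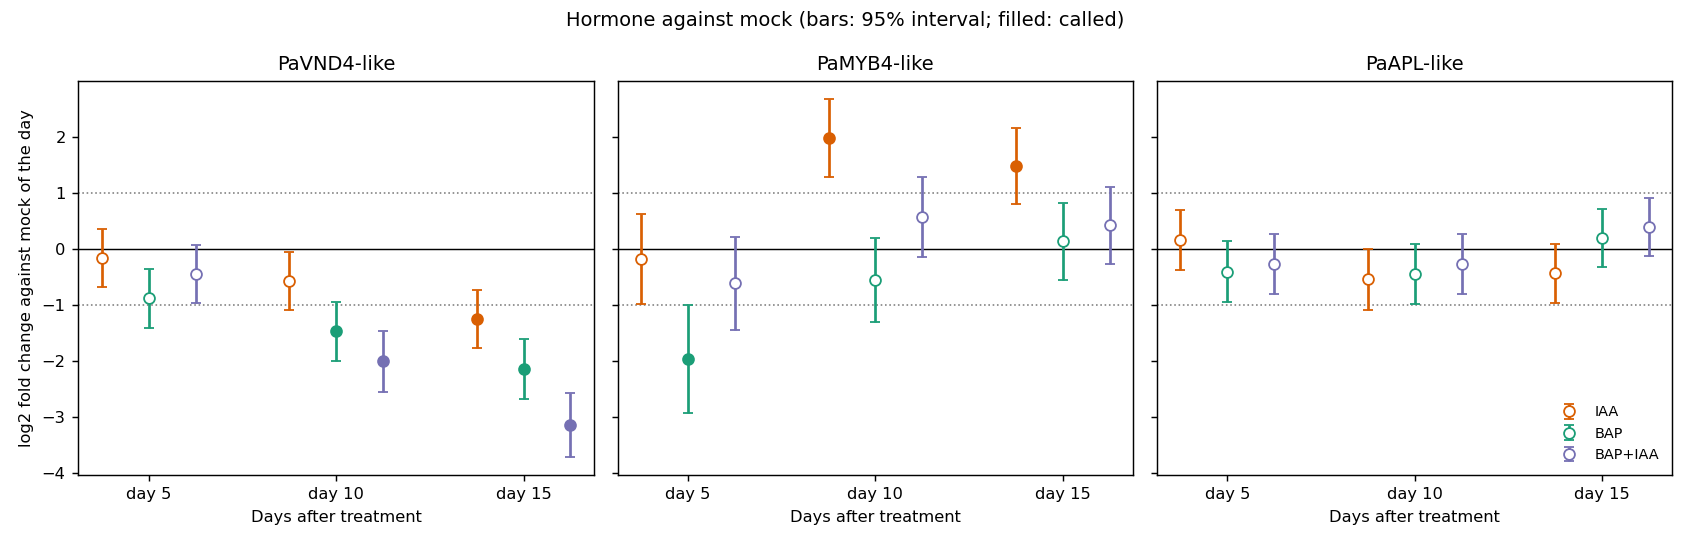
Log2 fold change of each gene against the mock of the same day, for IAA, BAP and BAP+IAA at days 5, 10 and 15 (3 libraries against 3). Bars are 95% intervals, filled points were called, and dotted lines mark the fold threshold. PaVND4-like lay below zero throughout and reached -3.15 under BAP+IAA at day 15, PaMYB4-like was raised by IAA at days 10 and 15 and lowered by BAP at day 5, and the PaAPL-like values stayed between -0.55 and 0.38.

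Whether the treatments differed from each other was tested directly. PaVND4-like was lower under the combination than under IAA alone at day 10 (-1.43 ± 0.26, adjusted P = 9.04e-05, 9.96% of all genes called lower) and at day 15 (-1.90 ± 0.27, adjusted P = 3.36e-06, 10.5%). At day 5 this difference was -0.28, with a 95% interval from -0.80 to 0.24. Against BAP alone the combination was lower at day 15 (-1.0 ± 0.27, adjusted P = 0.0114, 2.62% of all genes called lower). This value at the fold threshold was no longer called without BAP day 15 replicate 1 (-0.68) or without BAP+IAA day 15 replicate 1 (-0.71). The same difference was not called at day 10 (-0.54 ± 0.26, adjusted P = 0.152). At day 5 it had the opposite sign and was not called (0.44 ± 0.26, adjusted P = 0.224). IAA hypocotyls had more PaVND4-like RNA than BAP hypocotyls by log2 values of 0.72, 0.89 and 0.90 at days 5, 10 and 15, with adjusted P of 0.0292, 0.00694 and 0.00891. None of these 3 reached the fold threshold. The BAP by IAA interaction asks whether the combined effect differs from the sum of the single effects on the log2 scale. For PaVND4-like it was 0.61 ± 0.36 at day 5, 0.04 ± 0.36 at day 10 and 0.24 ± 0.37 at day 15, with adjusted P of 0.282, 0.978 and 0.768, where 7.68%, 8.45% and 6.64% of all genes were called in either direction. The 95% intervals ran from -0.13 to 1.34, from -0.71 to 0.78 and from -0.51 to 0.999.

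The time courses show where the growing difference from mock lay. In mock, PaVND4-like averaged 41.5 ± 12.7, 61.2 ± 8.91 and 79.0 ± 3.80 CPM on days 5, 10 and 15 (SD, n = 3 each). Day 15 differed from day 5 by 0.93 ± 0.25 on the log2 scale, with an adjusted P of 0.0535. This difference met neither the P nor the fold threshold and was not called, although the library ranges did not overlap. Under BAP+IAA the same days averaged 30.5 ± 1.37, 15.2 ± 3.33 and 8.93 ± 3.52 CPM. This fall was called both for day 10 against day 5 (-1.01 ± 0.26, adjusted P = 0.0139, 1.59% of all genes called lower) and for day 15 against day 5 (-1.78 ± 0.27, adjusted P = 2.72e-05, 3.1%). The first of these lost its call without BAP+IAA day 5 replicate 2 (-0.98) or BAP+IAA day 10 replicate 2 (-0.84). Under IAA the means were 37.0 ± 2.30, 41.1 ± 3.99 and 33.2 ± 8.33 CPM, and under BAP 22.5 ± 6.0, 22.1 ± 1.0 and 17.9 ± 6.16 CPM. Day 15 differed from day 5 by -0.16 under IAA (95% interval -0.67 to 0.36) and by -0.33 under BAP (-0.86 to 0.20). The response to BAP+IAA thus changed by -2.71 ± 0.37 between day 5 and day 15 (adjusted P = 2.2e-05, 1.79% of all genes called lower) and that to IAA by -1.09 ± 0.36 (adjusted P = 0.0354, 2.59%). The IAA call was kept in 5 of 12 fits that each left out 1 library, and the BAP+IAA call in all 12. For BAP the change was -1.26 ± 0.36 with an adjusted P of 0.0689, and it was called without BAP day 5 replicate 2 (-1.47) or BAP day 15 replicate 1 (-1.58).

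Ranked by mean, the 12 groups ran from 79.0 CPM (mock day 15) through 61.2 and 41.5 CPM (mock days 10 and 5) to 8.93 CPM (BAP+IAA day 15), an 8.84-fold range. Of the 11 pairs of neighbours in that order, 8 had overlapping library ranges. The breaks were between mock day 15 and mock day 10, between mock day 10 and mock day 5, and between BAP+IAA day 5 and BAP day 5.

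PaMYB4-like, the putative MYB repressor, was raised by IAA at the later days and lowered by BAP at the first. At day 5 all groups were low, with 1.61, 2.78 and 1.12 CPM under IAA, 0.439, 0.610 and 0.569 CPM under BAP, 2.10, 1.39 and 0.807 CPM under BAP+IAA, and 1.02, 2.94 and 2.54 CPM in mock. The BAP values rest on 6 to 11 counts per library and were all below the lowest mock library, which held 16 counts. At day 10 the IAA libraries reached 14.5, 16.1 and 19.1 CPM, against 4.26, 1.19 and 3.23 CPM under BAP, 5.80, 7.01 and 5.81 CPM under BAP+IAA, and 4.14, 5.40 and 3.09 CPM in mock. At day 15 the values were 20.6, 15.7 and 14.2 CPM under IAA, 6.10, 8.43 and 5.30 CPM under BAP, 8.80, 6.57 and 8.88 CPM under BAP+IAA, and 4.59, 6.98 and 6.55 CPM in mock. The 6 IAA libraries of days 10 and 15 were above all other 30 libraries.

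Against mock, PaMYB4-like was called in 3 of 9 comparisons. IAA raised it at day 10 by 1.98 ± 0.34 on the log2 scale (adjusted P = 3.19e-05), 3.94 times the mock level, and at day 15 by 1.48 ± 0.33 (adjusted P = 0.000903), 2.79 times the mock level. On those days 10.1% and 9.86% of all genes were called higher under IAA. At day 5 the IAA value was -0.19 ± 0.39 (adjusted P = 0.73). BAP lowered it at day 5, with a log2 value of -1.97 ± 0.47 (adjusted P = 0.00238, 5.81% of all genes called lower). The BAP values at days 10 and 15 were -0.56 ± 0.36 and 0.13 ± 0.34 (adjusted P = 0.27 and 0.812). Under BAP+IAA the values were -0.62 ± 0.41, 0.57 ± 0.35 and 0.42 ± 0.33 on days 5, 10 and 15, and none was called (adjusted P = 0.23, 0.191 and 0.326). In the average over days it was higher under IAA (1.09 ± 0.20, adjusted P = 4e-05), a call that was lost without mock day 5 replicate 1 (0.98) or IAA day 5 replicate 2 (0.93).

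Set against each other, IAA hypocotyls had more PaMYB4-like RNA than BAP hypocotyls on every day, by 1.78 ± 0.47, 2.54 ± 0.35 and 1.35 ± 0.33 on the log2 scale at days 5, 10 and 15 (adjusted P = 0.00384, 1.59e-06 and 0.00219). In these comparisons 9.43%, 11.4% and 10.9% of all genes were called higher. The day 5 call was lost without IAA day 5 replicate 2 (1.31). The combination was lower than IAA alone at day 10 (-1.41 ± 0.33, adjusted P = 0.00141) and at day 15 (-1.06 ± 0.33, adjusted P = 0.0137). The day 15 call was lost without IAA day 15 replicate 1 (-0.89) or BAP+IAA day 15 replicate 2 (-0.94). Against BAP alone the combination was higher at day 5 (1.35 ± 0.49, adjusted P = 0.0429, 7.49% of all genes called higher) and at day 10 (1.12 ± 0.36, adjusted P = 0.0237, 4.98%), and at day 15 the difference was 0.29, with a 95% interval from -0.39 to 0.97. Both of the called differences depended on single libraries. The day 5 call was kept in 1 of 6 fits that each left out 1 library, that without BAP+IAA day 5 replicate 3 (1.66), and lost in the other 5, with values from 0.98 to 1.45, and the day 10 call was lost when BAP day 10 replicate 2 (0.73) or BAP+IAA day 10 replicate 2 (1.03) was left out. The BAP by IAA interaction was 1.54 ± 0.63 at day 5, -0.86 ± 0.49 at day 10 and -1.19 ± 0.47 at day 15, with adjusted P of 0.0973, 0.285 and 0.11. The 95% intervals ran from 0.25 to 2.83, from -1.86 to 0.15 and from -2.15 to -0.23. These intervals were not adjusted for the number of genes tested. The day 5 interaction was called without mock day 5 replicate 1 (1.87) or IAA day 5 replicate 2 (2.01).

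PaMYB4-like rose with time under every treatment. It was higher at day 15 than at day 5 by 3.15 ± 0.37 on the log2 scale under IAA (adjusted P = 9.86e-08), by 3.58 ± 0.44 under BAP (adjusted P = 3.62e-06), by 2.52 ± 0.38 under BAP+IAA (adjusted P = 2.07e-05) and by 1.48 ± 0.37 in mock (adjusted P = 0.0316). In these 4 comparisons 12.8%, 8.09%, 5.37% and 0.772% of all genes were called higher. The mock value of 1.48 kept its call in 2 of 6 fits that each left out 1 library, and was lost without mock day 5 replicate 1 (1.14), mock day 5 replicate 3 (1.63), mock day 15 replicate 2 (1.36) and mock day 15 replicate 3 (1.42). Day 10 was already above day 5 under IAA (3.12 ± 0.37, adjusted P = 1.84e-07, 9.01% of all genes called higher), under BAP (2.37 ± 0.46, adjusted P = 0.00576, 1.21%) and under BAP+IAA (2.14 ± 0.38, adjusted P = 0.000459, 2.03%), whereas in mock the value of 0.96 ± 0.37 had an adjusted P of 0.389. From day 10 to day 15 the log2 changes were 0.03 ± 0.32 under IAA, 1.21 ± 0.35 under BAP, 0.38 ± 0.33 under BAP+IAA and 0.53 ± 0.35 in mock, and none was called. The response to IAA changed by 1.67 ± 0.51 between day 5 and day 15 (adjusted P = 0.0241, 5.85% of all genes called higher), a call kept in 6 of 12 fits that each left out 1 library. That to BAP changed by 2.10 ± 0.58 (adjusted P = 0.0567, and called at 2.44 without mock day 5 replicate 1) and that to BAP+IAA by 1.04 ± 0.53 (adjusted P = 0.295).

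Ranked by mean, PaMYB4-like ran from 16.8 ± 3.36 CPM (IAA day 15) and 16.5 ± 2.34 CPM (IAA day 10) to 0.539 ± 0.089 CPM (BAP day 5), a 31.2-fold range. The library ranges of neighbours in that order overlapped in 9 of 11 pairs. The breaks set the IAA groups of days 10 and 15 above the rest and BAP day 5 below it.

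PaAPL-like, the phloem gene, was called in 0 of 39 comparisons by edgeR and in 0 of 39 by DESeq2. The unadjusted P was below 0.05 in 9 of them and the adjusted P in 3. Of all genes tested, 53.3% were called in at least 1 of the 39 comparisons. At day 5 the libraries had 4.75, 2.25 and 3.15 CPM under IAA, 1.54, 2.11 and 3.10 CPM under BAP, 2.75, 2.23 and 2.47 CPM under BAP+IAA, and 3.69, 3.30 and 2.04 CPM in mock. At day 10 they had 2.83, 1.72 and 2.06 CPM under IAA, 2.70, 2.44 and 1.90 CPM under BAP, 3.20, 2.28 and 2.5 CPM under BAP+IAA, and 3.03, 3.04 and 3.52 CPM in mock. The IAA and BAP libraries of day 10 were all below the mock libraries, by a margin smaller than their own spread. At day 15 they had 2.52, 2.76 and 2.57 CPM under IAA, 4.88, 3.26 and 4.02 CPM under BAP, 4.17, 5.44 and 4.27 CPM under BAP+IAA, and 3.52, 3.52 and 3.60 CPM in mock. At this day the IAA libraries were all below and the BAP+IAA libraries all above the mock libraries, while the BAP range overlapped the mock range. The log2 fold changes were -0.44 ± 0.26 under IAA (adjusted P = 0.207) and 0.38 ± 0.25 under BAP+IAA (adjusted P = 0.233).

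The log2 fold change of PaAPL-like against mock lay between -0.55 and 0.38 in the 9 comparisons, with adjusted P from 0.104 to 0.653. The 95% intervals of these 9 reached down to -1.09 and up to 0.90. For them, these libraries leave room for changes of up to about the fold threshold. Over all 39 comparisons the intervals reached from -1.35 to 1.49, which leaves room for larger values. The BAP by IAA interaction was -0.02 ± 0.37, 0.72 ± 0.38 and 0.63 ± 0.36 on days 5, 10 and 15 (adjusted P = 0.997, 0.229 and 0.317). The day 15 value against mock minus the day 5 value was -0.60 ± 0.37 (IAA), 0.60 ± 0.37 (BAP) and 0.65 ± 0.36 (BAP+IAA). Their adjusted P were 0.305, 0.503 and 0.359. The largest differences were between later and earlier days and between treatments at day 15. BAP+IAA was above IAA at day 15 by 0.82 ± 0.26 (adjusted P = 0.0155), and day 15 was above day 5 by 0.84 ± 0.26 under BAP (adjusted P = 0.0207) and by 0.90 ± 0.26 under BAP+IAA (adjusted P = 0.0128). In each of these 3 comparisons the library ranges did not overlap, and none reached the fold threshold. The shares of all genes called in either direction in them were 16.4%, 10.5% and 8.46%. In mock the day 15 to day 5 difference was 0.24 ± 0.26 (95% interval -0.29 to 0.77), and under IAA it was -0.35 ± 0.26 (-0.89 to 0.18). The group means spanned a 2.10-fold range, from 2.20 ± 0.57 CPM (IAA day 10) to 4.63 ± 0.71 CPM (BAP+IAA day 15), and in the ranked order all 11 pairs of neighbours overlapped.

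The 3 genes did not share a pattern over the 12 groups. Pearson's r of the group means of log2 CPM was -0.02 for PaVND4-like and PaMYB4-like, -0.21 for PaVND4-like and PaAPL-like and 0.25 for PaMYB4-like and PaAPL-like, over 12 points that share treatments and days. Deviations of the 36 libraries from their group means gave 0.04, 0.18 and -0.27 for the same pairs.

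For each of the 3 genes, the genes with the most similar profile were sought among the 32342 with a mean of at least 1 CPM, as a description over the 12 group means. For PaVND4-like these were MA_68461g0010, MA_10431938g0010 and MA_10433785g0010, with r of 0.98 each. Among the genes that the study lists as regulators or cell wall enzymes, the closest were MA_10431084g0010, a laccase annotated as a multicopper oxidase of type 1 (r = 0.96), and MA_9761124g0010, annotated as laccase-2-like isoform X2 (r = 0.95). For PaMYB4-like the closest were MA_479709g0010, MA_7409729g0010 and MA_62368g0010 (r = 0.96 each), and among listed genes MA_97119g0010, a laccase (r = 0.92), and MA_84935g0010, a MYB family gene (r = 0.89). For PaAPL-like they were MA_201937g0020 (r = 0.93), MA_2744g0030 (r = 0.90) and MA_9871521g0010 (r = 0.90). The closest listed genes were less alike, namely MA_2017g0010, a probable pectinesterase (r = 0.63), and MA_10844g0010, annotated as transcription factor VOZ1 (r = 0.59).

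The gene closest to PaAPL-like, MA_201937g0020, has the next number after PaAPL-like under the same scaffold in the gene IDs. It had 69 to 193 counts per library and was called in 0 of 39 comparisons by edgeR, because no log2 fold change reached 1. Its adjusted P was below 0.05 in 14 of them, among these IAA against BAP at day 5 (0.82 ± 0.17, adjusted P = 0.00035) and day 15 against day 5 under BAP (0.89 ± 0.17, adjusted P = 0.000492). PaAPL-like had 3 such comparisons, with fewer counts (21 to 82 per library). Its values in the named comparisons were 0.57 ± 0.26 and 0.84 ± 0.26, with larger SE. The group means of MA_201937g0020 ran from 4.95 ± 0.69 CPM (BAP day 5) to 10.3 ± 1.22 CPM (BAP+IAA day 15). The likeness was seen in the group means, while the deviations of the 36 libraries within groups had r = -0.21. With 21 to 82 counts of PaAPL-like per library, that value cannot show whether the genes varied together within groups. Whether the IDs are parts of 1 gene was not tested.

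**Figure D3:**
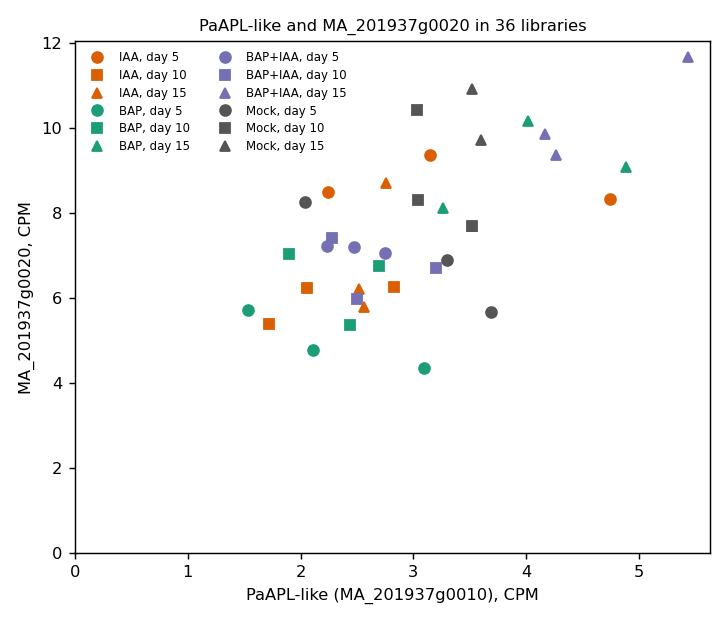
Level of PaAPL-like (x axis, CPM) and of MA_201937g0020 (y axis, CPM) in the 36 libraries, with colour for treatment and shape for day. The highest library of both genes was a BAP+IAA library of day 15, although other groups reached above the remaining libraries of that group, r of the 12 group means was 0.93, and within groups it was -0.21.

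Laccases polymerise lignin precursors in the walls of xylem cells, so the 72 putative laccases of the study were set beside PaVND4-like. Of these, 62 were tested. With IAA, 9, 13 and 13 were called higher and 24, 24 and 31 lower on days 5, 10 and 15, when 11.3%, 10.1% and 9.86% of all genes were called higher and 12.2%, 8.63% and 5.99% lower. BAP raised 8, 10 and 12 and lowered 30, 37 and 39 of them, beside 3.04%, 4.99% and 7% of all genes called higher and 5.81%, 7.89% and 8.19% lower. BAP+IAA raised 15, 15 and 9 and lowered 34, 39 and 39, beside 10.2%, 10% and 11.4% higher and 11%, 11.5% and 11.2% lower. For IAA the laccases' median log2 fold change was -0.69, -0.86 and -1.57 on these days, for BAP it was -1.24, -1.88 and -2.67, and for BAP+IAA -1.94, -3.53 and -3.94, while the median of all genes tested lay between -0.02 and 0.02. Like PaVND4-like, the laccase median thus had its lowest value under BAP+IAA at day 15. At day 5 the laccase median was lowest under BAP+IAA. PaVND4-like was then lowest under BAP (-0.89, against -0.44 under BAP+IAA, neither called). Its direct difference between BAP+IAA and BAP at day 5 was not called (0.44 ± 0.26, adjusted P = 0.224), so its order there is not established. The median also does not describe the laccases called higher. Of the 46 laccases with a mean of at least 1 CPM, 19 (41.3%) had r above 0.8 with PaVND4-like over the 12 group means, beside 3.6% of all 32342 genes. The same count was 2 (4.35%, beside 1.96%) for PaMYB4-like and 0 for PaAPL-like, for which 0.111% of all genes passed. This count was chosen after the likeness values had been seen, is a description, and several laccases may share reads.

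PaPRX66-like (MA_10431507g0020), a peroxidase that the study names as xylem-related together with PaVND4-like, differed from mock in the other direction. It was called higher under IAA at days 10 and 15 (log2 fold change 4.83 ± 0.65 and 3.91 ± 0.70), under BAP at days 10 and 15 (2.97 ± 0.69 and 3.57 ± 0.71) and under BAP+IAA at days 5, 10 and 15 (1.35 ± 0.55, 5.33 ± 0.65 and 4.34 ± 0.69). Its mean at day 10 was 7.55 ± 4.64 CPM under IAA, 2.09 ± 1.32 CPM under BAP and 10.6 ± 2.99 CPM under BAP+IAA (SD). In mock it was 0.261 CPM, where each library held 4 counts. At day 15 the mock libraries held 2 to 4 counts, and the IAA libraries ran from 0.823 to 4.60 CPM. The size of the folds of days 10 and 15 is thus uncertain. The r of PaPRX66-like with PaVND4-like over the group means was -0.68.

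**Figure D4:**
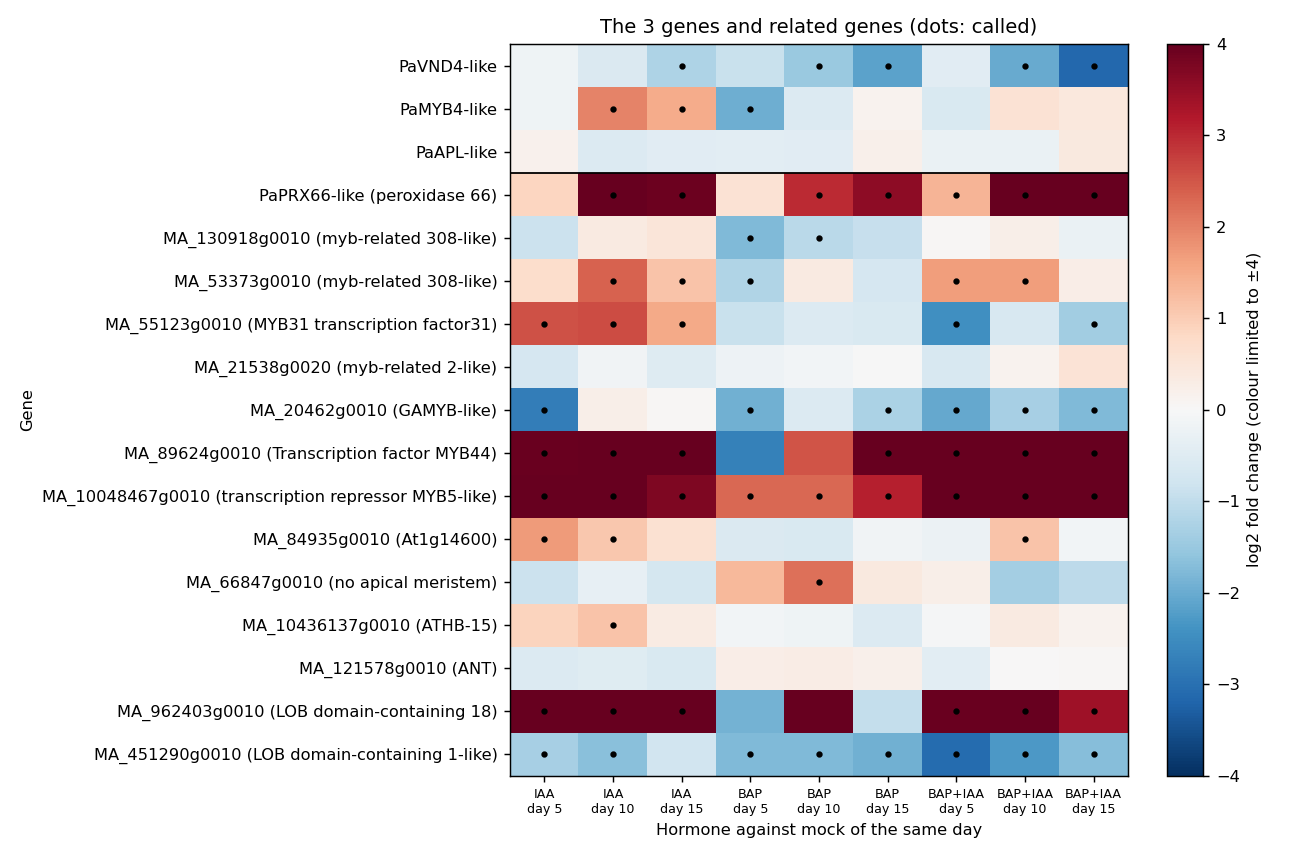
Log2 fold change against the mock of the same day (colour, limited to ±4) for the 3 genes, PaPRX66-like, 9 MYB and NAC genes and 4 other vascular transcription factors, with columns by hormone and day. A dot marks a call. For MA_89624g0010 and MA_962403g0010 mock libraries had between 0 and 4 counts, so the size of their colour is not a measured fold. For PaPRX66-like the mock libraries of days 10 and 15 had 2 to 4 counts, so the size of its folds there is uncertain.

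Other MYB and NAC genes that the study found raised in grafts, in libraries not used here, gave a background for PaMYB4-like. All 9 were tested. Under IAA 4, 5 and 4 of them were called higher at days 5, 10 and 15 and 1 was called lower, at day 5. BAP raised 1, 2 and 2 and lowered 3, 1 and 1 of them, and BAP+IAA raised 3, 4 and 2 and lowered 2, 1 and 2. For IAA the list's median log2 fold change was 0.71, 1.07 and 0.62 at the 3 days, for BAP it was -0.90, -0.10 and -0.15, and for BAP+IAA 0.04, 0.23 and -0.10, beside the medians of all genes between -0.02 and 0.02. Of all genes tested, 11.3%, 10.1% and 9.86% were called higher and 12.2%, 8.63% and 5.99% lower under IAA on these days, 3.04%, 4.99% and 7% higher and 5.81%, 7.89% and 8.19% lower under BAP, and 10.2%, 10% and 11.4% higher and 11%, 11.5% and 11.2% lower under BAP+IAA.

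MA_53373g0010 and MA_130918g0010 carry the same MYB-related annotation as PaMYB4-like. How reads that fit several genes were counted is not given in the sources used here, so values of the 3 genes may be mixed. MA_53373g0010 was called higher under IAA at day 10 (2.36 ± 0.35, adjusted P = 3.79e-06) and day 15 (1.15 ± 0.34, adjusted P = 0.00876) and lower under BAP at day 5 (-1.19 ± 0.42, adjusted P = 0.0402), the same 3 comparisons as PaMYB4-like. Unlike PaMYB4-like, it was also called higher under BAP+IAA at day 5 (1.68 ± 0.36, adjusted P = 0.000336) and day 10 (1.68 ± 0.35, adjusted P = 0.000284), and the difference between the genes was not tested. MA_130918g0010, with group means of 34.4 to 249 CPM, was called lower under BAP at day 5 (-1.77 ± 0.27, adjusted P = 2.15e-05) and day 10 (-1.09 ± 0.26, adjusted P = 0.00252). Under IAA it had log2 values of -0.85, 0.35 and 0.49, which were not called. All 3 genes were thus lower under BAP than in mock at day 5. In the BAP by IAA interaction of day 5, MA_53373g0010 had 2.16 ± 0.54 and MA_130918g0010 2.66 ± 0.38, where PaMYB4-like had 1.54 ± 0.63.

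Of the other MYB and NAC genes, PaMYB123-like (MA_10048467g0010), annotated as a repressor like MYB5, was called higher in all 9 comparisons with mock. Its mean at day 10 was 44.3 ± 7.41 CPM under IAA, 9.94 ± 3.72 CPM under BAP and 55.8 ± 6.62 CPM under BAP+IAA, against 1.97 ± 0.94 CPM in mock. MA_55123g0010, annotated as MYB31, a regulator of phenylpropanoid genes in maize, was higher under IAA at days 5, 10 and 15 (2.55 ± 0.42, 2.62 ± 0.39 and 1.51 ± 0.37) and lower under BAP+IAA at day 5 (-2.46 ± 0.62) and day 15 (-1.39 ± 0.41). MA_84935g0010 was higher under IAA at day 5 (1.69 ± 0.39) and day 10 (1.07 ± 0.35) and under BAP+IAA at day 10 (1.15 ± 0.35). MA_20462g0010, similar to the gibberellin-linked regulator GAMYB, was lower at day 5 under IAA (-2.78 ± 0.50), BAP (-1.93 ± 0.46) and BAP+IAA (-2.06 ± 0.46), at day 15 under BAP (-1.27 ± 0.44) and BAP+IAA (-1.77 ± 0.45), and at day 10 under BAP+IAA (-1.33 ± 0.47). MA_89624g0010, annotated as MYB44, averaged 2.72 ± 0.53 CPM under IAA, 0.306 ± 0.267 CPM under BAP and 5.79 ± 0.87 CPM under BAP+IAA at day 15, against mock libraries that were all at 0. MA_66847g0010, the NAC gene, was higher under BAP at day 10 (2.19 ± 0.52). Its BAP libraries of that day had 2.84, 3.36 and 10.7 CPM, all above the mock libraries (0.888 to 1.57 CPM). The size of this value thus leans on the highest library. MA_21538g0020 was not called, with log2 values from -0.66 to 0.56.

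4 further transcription factors with vascular roles in Arabidopsis were in the same graft list. MA_962403g0010, annotated as LOB domain-containing 18, an auxin-induced regulator of lateral root and tracheary element formation in Arabidopsis, averaged 32.7 ± 4.52, 36.7 ± 0.83 and 18.6 ± 4.98 CPM on days 5, 10 and 15 under IAA. Under BAP+IAA it averaged 0.425 ± 0.247, 0.886 ± 0.218 and 0.961 ± 0.662 CPM, from 4 to 27 counts per library, and was called higher than in mock on each day (adjusted P = 0.0103, 0.000226 and 0.00165). It was not called under BAP, and no mock library had more than 4 counts. MA_451290g0010, LOB domain-containing 1-like, was lower under BAP and BAP+IAA on all 3 days and under IAA at days 5 and 10. At day 15 its log2 values were -0.75 ± 0.37 under IAA, which was not called, -1.92 ± 0.40 under BAP and -1.69 ± 0.39 under BAP+IAA. MA_10436137g0010, annotated as ATHB-15, a homeodomain factor of vascular patterning, was higher under IAA at day 10 (1.14 ± 0.21, adjusted P = 6.58e-05). MA_121578g0010, annotated as ANT, which promotes cambial cell division in Arabidopsis, was not called against mock, with log2 values from -0.62 to 0.29. MA_451290g0010 was the only 1 of these 4 called lower in any comparison with mock. In single comparisons with mock, 5.81% to 12.2% of all genes were called lower. At day 5 its IAA libraries (1.01 to 1.68 CPM) overlapped its mock libraries (1.34 to 4.91 CPM).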

How the data were processed

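RNA of 36 hypocotyl libraries was sequenced. The paper describes poly-A isolation for its graft libraries, and of the hormone libraries it says only that Novogene made them. The authors removed ribosomal reads with SortMeRNA, filtered reads with fastp, aligned them with STAR to P. abies genome version 1 and used HTSeq (reverse strand) to count them by gene. These whole, unnormalized counts are what was deposited. DESeq2 calls made by the authors are not used here. All columns were matched to samples by their labels.

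Tests ran under R 4.3.3 in edgeR 4.0.16 (with limma 3.58.1) and, as an alternative, DESeq2 1.42.0. Of 70736 genes, 17643 had no count. filterByExpr kept 38732 genes with 99.9% of counts. TMM factors were 0.952 to 1.07. A model with 12 group means was fitted (glmQLFit, robust, 24 residual degrees of freedom, biological coefficient of variation 20.9%) and 39 contrasts of 3 libraries against 3, or sums of them, were tested two-sided with Benjamini-Hochberg adjustment over all genes tested. The standard error is the absolute log2 fold change divided by the square root of F. The script was tested on simulated data. Hormone comparisons of 1 day share their mock libraries.

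Named genes were the 3 genes, all tested genes of the MYB and NAC and vascular lists, PaPRX66-like, and for each of the 3 genes the 3 most similar of all and the 2 most similar listed genes. PaCDKB2;2-like served as tissue check. The rule for the 3 genes holds no measured value, but these genes and the lists were proposed with earlier results of these data known. As alternatives, RLE size factors, all genes with a count, DESeq2, a replicate block, libraries of the same day only, an adjusted P below 0.01, TREAT and the omission of each library were tried. Sequences, lengths and coordinates were not used here.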

Additional observations from a re-analysis of the deposited data

Results flagged for a closer look

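Some responses differed between day 5 and day 15 by a direct test of the difference (edgeR's quasi-likelihood test of the hormone-minus-mock value at day 15 minus that at day 5). PaVND4-like changed by -2.71 under BAP+IAA (adjusted P = 2.2e-05) and by -1.09 under IAA (adjusted P = 0.0354), so its level relative to mock was lower at day 15. PaMYB4-like changed by 1.67 under IAA (adjusted P = 0.0241), with log2 values against mock of 1.48 at day 15 and -0.19 at day 5. The BAP+IAA value kept its call in every fit that left out 1 library. The IAA values kept theirs in 5 of 12 such fits for PaVND4-like and in 6 of 12 for PaMYB4-like. For PaVND4-like the IAA change was lost without the first mock library of day 5 (-0.85), the first (-1.05) or the third (-1.08) mock library of day 15, the first (-1.05) or second (-1.07) IAA library of day 5 and the first (-0.94) or the third (-1.03) IAA library of day 15. For PaMYB4-like it was lost without the second (1.41) or the third (1.52) mock library of day 5, the first mock library of day 15 (1.5), the first (1.57) or the third (1.42) IAA library of day 5 and the first IAA library of day 15 (1.49). Mock day 5 replicate 1 was the lowest mock library of its day for PaVND4-like (26.8 CPM, against 48.2 and 49.5 CPM in the others) and for PaMYB4-like (1.02 CPM, against 2.94 and 2.54 CPM).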

How the results depend on the processing

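RLE size factors changed no call among the 117 values (39 comparisons of 3 genes), of which 33 were called. With an adjusted P below 0.01, 25 were called. Lost were BAP+IAA against BAP for PaMYB4-like at day 5 (1.35) and day 10 (1.12) and for PaVND4-like at day 15 (-1.0), BAP+IAA against IAA for PaMYB4-like at day 15 (-1.06), BAP+IAA day 10 against day 5 for PaVND4-like (-1.01), mock day 15 against day 5 for PaMYB4-like (1.48) and the changes of the IAA response (-1.09 for PaVND4-like, 1.67 for PaMYB4-like). TREAT, a test against the fold threshold itself, kept 14 calls. Beside the same 8 it lost, for PaMYB4-like, BAP against mock at day 5 (-1.97), IAA against mock at day 15 (1.48), IAA against BAP at days 5 and 15 (1.78 and 1.35), BAP+IAA against IAA at day 10 (-1.41), day 10 against day 5 under BAP (2.37) and BAP+IAA (2.14) and the IAA average (1.09), and for PaVND4-like, BAP against mock at day 10 (-1.47), IAA against mock at day 15 (-1.25) and BAP+IAA against IAA at day 10 (-1.43). Without the low-count filter BAP+IAA against BAP (1.34 for PaMYB4-like at day 5, -1.0 for PaVND4-like at day 15), BAP+IAA day 10 against day 5 (-1.0) and the IAA response change (-1.08), both for PaVND4-like, were not called. With libraries of the same day only, BAP+IAA against BAP was not called for PaMYB4-like at day 5 (1.35) and PaVND4-like at day 15 (-1.02), and the PaMYB4-like interaction of day 15 was (-1.22, adjusted P = 0.0382). DESeq2 added PaMYB4-like under BAP for day 15 against day 10 (1.23) and the changes of the BAP response (-1.24 for PaVND4-like, 2.14 for PaMYB4-like). The cause of these changes was not tested, beyond the stricter thresholds themselves.

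The labels number the libraries of each group alike. Same-numbered libraries of different groups had a median correlation of deviations of 0.0568 (198 pairs, 60 over 0.1), against -0.0335 for different numbers (396 pairs, 19 over 0.1), and 23 of 36 libraries correlated best with their own number, a hint of a shared factor. Not every pair was over 0.1 and no source says what a number marks, so the numbers were not taken as pairs. With the replicate block 32 values were called, and the only call that changed was BAP+IAA against BAP for PaMYB4-like at day 5 (1.35, adjusted P = 0.0505).

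Leaving out 1 library at a time changed calls as follows. PaVND4-like ranged from -1.12 to -0.68 for BAP against mock at day 5, from -1.13 to -0.84 for BAP+IAA day 10 against day 5, from -1.25 to -0.68 for BAP+IAA against BAP and from 0.68 to 1.22 for IAA against BAP at day 15, from -1.30 to -0.85 for the IAA and from -1.58 to -1.02 for the BAP response change. PaMYB4-like ranged from 0.93 to 1.18 for the IAA average, from 1.17 to 2.01 for the day 5 interaction, from 1.31 to 2.03 for IAA against BAP and from 0.98 to 1.66 for BAP+IAA against BAP at day 5, from 0.73 to 1.51 for BAP+IAA against BAP at day 10, from -1.17 to -0.89 for BAP+IAA against IAA at day 15, from 1.14 to 1.74 for mock day 15 against day 5, from 1.41 to 2.14 for the IAA and from 1.84 to 2.44 for the BAP response change. PaAPL-like ranged from 0.64 to 1.14 for day 15 against day 5 under BAP. Of uncalled values, the sign turned for PaMYB4-like (IAA at day 5, -0.66 to 0.074, BAP at day 15, -0.082 to 0.27, BAP+IAA against IAA at day 5, -0.80 to 0.045, IAA day 15 against day 10, -0.15 to 0.14), PaVND4-like (BAP day 10 against day 5, -0.23 to 0.11, interactions of day 10, -0.088 to 0.21, and day 15, -0.023 to 0.56) and PaAPL-like (IAA at day 5, -0.16 to 0.40, day 5 interaction, -0.26 to 0.30, mock day 10 against day 5, -0.13 to 0.27, BAP+IAA against BAP at day 5, -0.064 to 0.43, BAP day 10 against day 5, -0.15 to 0.35, IAA against BAP at day 10, -0.31 to 0.055, BAP+IAA day 10 against day 5, -0.055 to 0.19, BAP+IAA average, -0.13 to 0.0048). The other called comparisons with mock on single days kept their calls. Counts of 6 to 11 per library under BAP at day 5 limit the PaMYB4-like values there, and counts of 21 to 82 limit PaAPL-like.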
